A study of Homo sapiens with 12 samples.

Results

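The mRNAs of the nuclear-encoded subunits of respiratory complex I were followed across input and polysomal RNA of H1299 cells, an established line from a non-small-cell carcinoma of the human lung. The members were the table rows with a symbol of the form NDUFA, NDUFB, NDUFC, NDUFS or NDUFV followed by a number, together with NDUFAB1. There were 38 such genes among the 16172 genes of the table, and all 38 were among the 10605 genes tested. There were 7 core subunits, such as NDUFS1, NDUFS3 and NDUFV1, and the other 31 were taken as accessory. NDUFA4 matches the naming rule and was kept, although the protein is now assigned to complex IV. The 7 subunits encoded in mitochondrial DNA were not analysed here.

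Complex I is the NADH:ubiquinone oxidoreductase of the inner mitochondrial membrane. Its N module takes electrons from NADH, its Q module passes them through iron-sulfur clusters to ubiquinone, and its membrane arm pumps protons. The core subunits carry the cofactors and the pumping channels and have bacterial relatives, whereas the accessory subunits surround them and serve assembly and stability. Nuclear-encoded subunits are made on cytosolic ribosomes and imported, so the position of their mRNAs on polysomes bears on how much subunit is made. Cancer cell lines in culture usually keep oxidative phosphorylation active beside glycolysis.

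The 12 libraries fell into 4 groups of 3 replicates: polysomal RNA of siEIF3G cells, input RNA of siEIF3G cells, polysomal RNA of siCtrl cells and input RNA of siCtrl cells. siEIF3G cells had been transfected with a mixture of siEIF3G-4 and siEIF3G-5, which target EIF3G, a subunit of the initiation factor eIF3, and siCtrl cells with a control siRNA. Cells were lysed after 72 h, 10% of the lysate was kept as input, and polysomes were collected from a sucrose gradient of 10% to 50%. The study thus used a transient knockdown in a single cell line, and the series asked how it alters translation. The labels do not say whether replicates were separate cultures, so p-values measure only the spread between these libraries, which may be technical. Levels are TPM (transcripts per 1000000 transcripts, a length-corrected share of each library), so the number of reads behind a value is unknown.

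EIF3G itself averaged 114.9 ± 39.9 TPM in siEIF3G and 1799.6 ± 118 TPM in siCtrl polysomal RNA, and 64.3 ± 19.0 TPM in siEIF3G and 1043 ± 147 TPM in siCtrl input RNA (SD, n = 3 each). It fell by 4.02 and 4.03 on the log2 scale in polysomal and input RNA (limma adjusted p = 3.76e-05 and 3.71e-05), although with median-of-ratios scaling the adjusted p in input RNA was 0.0657. The markers KRT8 and KRT18 (107.6 to 429 and 435 to 1934 TPM) and VIM (265 to 3105 TPM) were present, whereas KRT19, EPCAM, CDH1 and NKX2-1 were at most 0.61 TPM in any library. Of the 14 markers of other cell types 9 had rows, with a summed level of 63.1 to 142 TPM, nearly all from the macrophage marker CD68, and with PECAM1, VWF, COL1A1, ALB and GFAP at most 0.1 TPM. There were 3 libraries that stood apart. The libraries siCtrl input 1, siEIF3G input 2 and siEIF3G polysomal 3 correlated less with the other replicates of their own group (mean r over genes 0.922, 0.929 and 0.949) than with the other fraction of the same siRNA (0.957, 0.958 and 0.953). Results that rest on them are given with and without them, a choice made with earlier results known. As they were picked for their likeness to the other fraction, leaving them out tends by construction to widen the difference between fractions.

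Levels of the subunit mRNAs differed up to 392-fold between genes. By mean TPM over the 12 libraries, the highest were NDUFB7, a CHCH-domain protein of the distal membrane arm (2341 TPM), NDUFA11, a membrane-embedded accessory subunit (2056 TPM), and NDUFB2, of the distal arm (1759.8 TPM). The lowest were NDUFV3, a small flavoprotein-fraction subunit (5.96 TPM), NDUFS1, the large iron-sulfur subunit of the N module (7.99 TPM), and NDUFB5, of the distal arm (21.6 TPM). NDUFS1 and NDUFS7, which are both core subunits, lay at 7.99 and 1169.6 TPM. The summed level of all 38 took 2.19 ± 0.285% of siEIF3G polysomal and 1.76 ± 0.402% of siEIF3G input libraries, and 2.27 ± 0.1996% of siCtrl polysomal and 2.10 ± 0.532% of siCtrl input libraries (SD, n = 3 each). The values of each group overlapped with those of every other group.

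**Figure D1:**
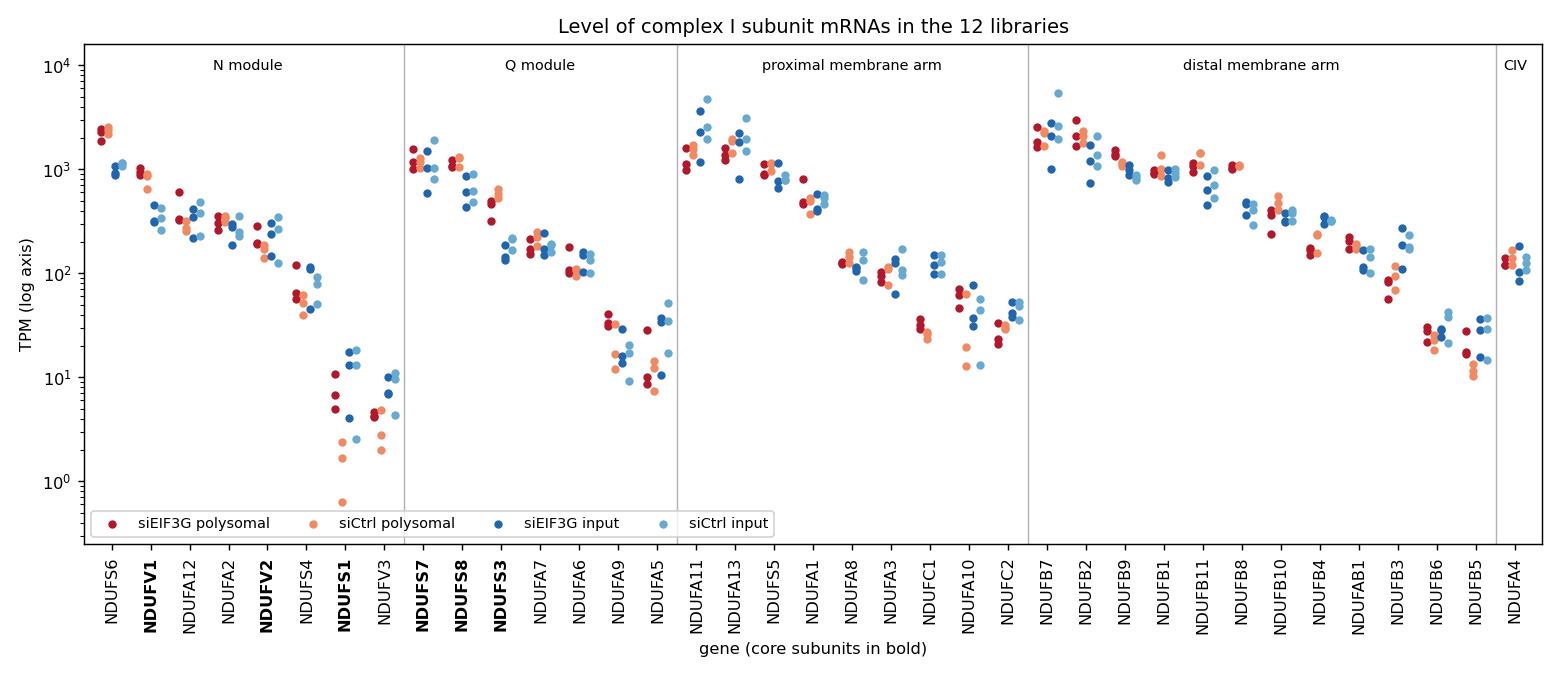
TPM of 37 of the 38 mRNAs in the 12 libraries on a log axis, grouped by the part of the complex, with core subunits in bold and 1 point per library. NDUFS1 and NDUFV3 lie lowest and NDUFB7, NDUFA11 and NDUFB2 among the highest. With both siRNAs pooled, the polysomal and input points of NDUFC1, NDUFS3, NDUFS6, NDUFB8, NDUFV1, NDUFS8, NDUFB4 and NDUFC2 do not overlap.

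Within the N module, NDUFV1, which binds NADH and the flavin, had 872, 949.9 and 1019 TPM in siEIF3G polysomal and 316, 452 and 310.4 TPM in siEIF3G input libraries, in replicate order, as in all such lists. In siCtrl cells NDUFV1 had 894, 862 and 651 TPM in polysomal and 423, 340.5 and 259 TPM in input RNA. Under either siRNA every polysomal value of NDUFV1 lay above every input value. NDUFV2, which carries an iron-sulfur cluster next to it, had 196, 192 and 287 TPM in siEIF3G polysomal, 241, 146 and 302 TPM in siEIF3G input, 187, 171 and 141 TPM in siCtrl polysomal and 125, 264 and 350.4 TPM in siCtrl input RNA. Its fractions overlapped under either siRNA, while the siEIF3G polysomal values all lay above the siCtrl polysomal values. NDUFS1 had 4.90, 6.82 and 10.8 TPM in siEIF3G polysomal, 13.1, 4.03 and 17.4 TPM in siEIF3G input, 2.39, 1.69 and 0.630 TPM in siCtrl polysomal and 2.52, 13.2 and 18.4 TPM in siCtrl input RNA. The lowest NDUFS1 values of the input groups, 4.03 and 2.52 TPM, were those of siEIF3G input 2 and siCtrl input 1, which are among the libraries that stood apart.

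Among the accessory subunits of the N module, NDUFS6, which binds zinc, stood at 2281, 1868 and 2412 TPM in siEIF3G polysomal and 927, 1067 and 881 TPM in siEIF3G input RNA. Its siCtrl values were 2189, 2359 and 2572 TPM in polysomal and 1157, 1160.0 and 1079 TPM in input RNA, so the fractions separated under either siRNA. NDUFV3 had 4.19, 4.23 and 4.63 TPM in siEIF3G polysomal, 7.07, 6.91 and 10.1 TPM in siEIF3G input, 4.89, 2.78 and 2.01 TPM in siCtrl polysomal and 4.29, 9.53 and 10.96 TPM in siCtrl input RNA. NDUFS4, mutated in Leigh syndrome, averaged 80.5 ± 34.2 TPM in siEIF3G polysomal and 89.4 ± 38.4 TPM in siEIF3G input RNA, and 51.1 ± 11.1 TPM in siCtrl polysomal and 73.6 ± 20.8 TPM in siCtrl input RNA, with overlap between fractions. NDUFA2 and NDUFA12 ranged from 185 to 356 and from 217 to 598 TPM over all libraries, also with overlap between fractions.

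In the Q module, NDUFS3 had 498, 458 and 319 TPM in siEIF3G polysomal and 134, 186 and 144 TPM in siEIF3G input libraries. In siCtrl cells NDUFS3 had 645, 578 and 534 TPM in polysomal and 167, 216 and 220.0 TPM in input libraries. The fractions did not overlap under either siRNA, and the siEIF3G polysomal values all lay below the siCtrl polysomal values. NDUFS7, which holds the last cluster before ubiquinone, had 1175, 1005 and 1549 TPM in siEIF3G polysomal, 1034, 1498 and 596 TPM in siEIF3G input, 1019, 1275 and 1173 TPM in siCtrl polysomal and 1892, 1021 and 798 TPM in siCtrl input RNA, with overlapping fractions. NDUFS8, which carries iron-sulfur clusters, had 1222, 1060.3 and 1085 TPM in siEIF3G polysomal, 599, 869 and 436 TPM in siEIF3G input, 1043, 1286 and 1303 TPM in siCtrl polysomal and 890.4, 623 and 486 TPM in siCtrl input RNA. NDUFS8 lay higher in every polysomal than in every input library under either siRNA.

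Of the accessory subunits of the Q module, NDUFA9, which binds a nucleotide cofactor at the join of the arms, had 31.1 to 40.5 TPM in siEIF3G polysomal, 13.7 to 28.9 TPM in siEIF3G input, 12.01 to 32.7 TPM in siCtrl polysomal and 9.10 to 20.4 TPM in siCtrl input libraries. NDUFA5 had 7.43 to 28.1 TPM in polysomal and 10.5 to 51.98 TPM in input RNA. NDUFA6, a LYR-motif protein, had 94.1 to 180.3 TPM in polysomal and 101 to 161 TPM in input RNA, and NDUFA7 had 152 to 251 TPM and 149 to 245 TPM. The fractions of these 4 mRNAs overlapped when the libraries of both siRNAs were pooled. Within siEIF3G cells, however, NDUFA9 lay higher in every polysomal than in every input library. Within siCtrl cells NDUFA5 lay lower in every polysomal library (7.43 to 14.4 TPM) than in every input library (17 to 51.98 TPM).

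In the membrane arm, NDUFC1, a small subunit of its proximal part, showed the widest separation of the fractions, with 28.8, 31.6 and 36.1 TPM in siEIF3G polysomal and 97.2, 119 and 149 TPM in siEIF3G input libraries. In siCtrl cells NDUFC1 had 25.9, 23.4 and 27.3 TPM in polysomal and 98.8, 129 and 149 TPM in input libraries. The polysomal level of NDUFC1 was thus 0.264 times the input level in siEIF3G cells and 0.204 times in siCtrl cells, by group means. NDUFC2, its neighbour, averaged 25.9 ± 6.66 TPM in siEIF3G polysomal, 43.99 ± 7.88 TPM in siEIF3G input, 30.2 ± 1.41 TPM in siCtrl polysomal and 45.5 ± 8.66 TPM in siCtrl input RNA. The table also has a row for the read-through NDUFC2-KCTD14 (7.68 to 23.9 TPM), which shares sequence with NDUFC2, so the split of reads between them is uncertain. Of the other proximal subunits, NDUFA11 had 980.2 to 1724 TPM in polysomal and 1186 to 4739.7 TPM in input RNA, and NDUFA13, also known as a cell-death regulator, had 1238 to 1952 TPM and 807 to 3136 TPM. NDUFA1, which is X-linked, averaged 507 TPM, NDUFS5 929 TPM, NDUFA8 126 TPM, NDUFA3 107 TPM and NDUFA10, which resembles a nucleoside kinase, 44.3 TPM over the 12 libraries.

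In the distal part of the membrane arm, NDUFB8 had 1097, 1022 and 1008 TPM in siEIF3G polysomal and 362, 463 and 488 TPM in siEIF3G input libraries. Its siCtrl values were 1066, 1084 and 1097 TPM in polysomal and 294, 467 and 403 TPM in input RNA, with the fractions well apart under either siRNA. NDUFB4 lay on the other side, with 148, 176 and 167 TPM in siEIF3G polysomal, 352, 296 and 347 TPM in siEIF3G input, 155, 240.2 and 235 TPM in siCtrl polysomal and 327, 319 and 315 TPM in siCtrl input RNA. NDUFB3 likewise had 57.1, 83.01 and 85.6 TPM in siEIF3G polysomal, 273, 110.3 and 186 TPM in siEIF3G input, 69.5, 94.8 and 117 TPM in siCtrl polysomal and 181, 172 and 235 TPM in siCtrl input RNA. All polysomal values of NDUFB3 and NDUFB4 lay below all input values of the same siRNA. NDUFB11, which is X-linked, averaged 1058 ± 100.2 TPM in siEIF3G polysomal, 649 ± 201 TPM in siEIF3G input, 1319 ± 192 TPM in siCtrl polysomal and 739.7 ± 236 TPM in siCtrl input RNA. NDUFB7 averaged 2007 ± 474 TPM in siEIF3G polysomal, 1969.6 ± 899 TPM in siEIF3G input, 2089 ± 376 TPM in siCtrl polysomal and 3297 ± 1810.5 TPM in siCtrl input RNA, and its highest value, 5355 TPM, came from siCtrl input 1. The remaining distal subunits by mean over 12 libraries were NDUFB2 at 1759.8 TPM, NDUFB9, a LYR-motif protein, at 1091 TPM, NDUFB1 at 946 TPM, NDUFB10, a CHCH-domain protein, at 380.1 TPM, NDUFAB1, the mitochondrial acyl carrier protein, at 163 TPM, NDUFB6 at 27.5 TPM and NDUFB5 at 21.6 TPM. NDUFA4 had 129 TPM.

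The comparison of polysomal with input RNA within each siRNA asked which subunit mRNAs were enriched on polysomes. As a share of the library, polysomal RNA held more NDUFS3, NDUFV1, NDUFB8 and NDUFS6 mRNA than input RNA, and less NDUFC1 mRNA, under either siRNA. NDUFB4 was also lower in TPM under either siRNA, but its direction in siCtrl cells depended on the scaling (0.54 with median-of-ratios size factors). Of the 38 mRNAs, 4 were higher and 2 lower on polysomes in siEIF3G cells (10.5% and 5.26%), against 1.81% higher and 1.33% lower among all genes tested, out of 3.14% in either direction. In siCtrl cells 6 were higher and 5 lower (15.8% and 13.2%), against 7.98% and 28.9% of all genes, out of 36.9%. The fractions did not overlap for 11 higher and 5 lower mRNAs in siEIF3G cells (28.9% and 13.2%), against 9.4% and 12.7% of all genes. In siCtrl cells 8 were higher and 8 lower without overlap (21.1% each), against 16.9% and 28.9% of all genes. An unadjusted p under 0.05 was reached by 14 of the 38 in siEIF3G and 16 in siCtrl cells, against 20.5% and 60.7% of all genes. No test of these shares was made. The median SE of a difference between 2 groups was 0.28 for the 38 mRNAs and 0.44 for all genes tested. The shares of calls and of groups without overlap are therefore not matched for precision. Values were tested with limma on log2(TPM + 1), with Benjamini-Hochberg adjustment over the 10605 genes and a threshold of 0.05.

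In siEIF3G cells, the log2 change of polysomal over input RNA was 1.45 ± 0.23 (SE; adjusted p = 0.00705) for NDUFS3 and 1.41 ± 0.24 (SE; adjusted p = 0.00858) for NDUFV1, both core subunits. It was 1.26 ± 0.21 (SE; adjusted p = 0.00847) for NDUFB8 and 1.19 ± 0.18 (SE; adjusted p = 0.00473) for NDUFS6. On the other side, NDUFC1 fell by 1.87 on the log2 scale (SE 0.25; adjusted p = 0.00252) and NDUFB4 fell by 1.01 (SE 0.21; adjusted p = 0.0251). NDUFB3 had the lowest value after NDUFC1, -1.25 ± 0.33 (SE; adjusted p = 0.06), and did not pass the threshold.

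In siCtrl cells, the same 6 mRNAs passed again, with log2 changes of 1.55 ± 0.23 for NDUFS3, 1.502 ± 0.21 for NDUFB8, 1.25 ± 0.24 for NDUFV1 and 1.07 ± 0.18 for NDUFS6 (SE; limma adjusted p = 0.00318, 0.00207, 0.0106 and 0.00647). The lower mRNAs were NDUFC1, at -2.24 ± 0.25 (SE; adjusted p = 0.000727), and NDUFB4, at -0.63 ± 0.21 (SE; adjusted p = 0.0436). Further calls came for NDUFS8, at 0.90 ± 0.27 (SE; adjusted p = 0.0382), and NDUFB11, at 0.87 ± 0.27 (SE; adjusted p = 0.0399), among the higher mRNAs. Among the lower ones they came for NDUFB3 at -1.07 ± 0.33 (SE; adjusted p = 0.039), NDUFS1 at -2.01 ± 0.65 (SE; adjusted p = 0.0413) and NDUFV3 at -1.10 ± 0.41 (SE; adjusted p = 0.0495). NDUFS1 averaged only 1.57 ± 0.89 TPM in siCtrl polysomal RNA (SD, n = 3), near the pseudocount of 1, so its change rests on values near the floor. Thus 4 of 4 higher and 2 of 2 lower calls of siEIF3G cells were among the 6 higher and 5 lower calls of siCtrl cells. The 2 comparisons share no library, but both take the spread of a gene from all 12 libraries, so their calls are not independent. The matching overlap of calls over all genes is not given here. Across the 38 mRNAs the log2 changes in siEIF3G cells followed those in siCtrl cells (Pearson r = 0.89, Spearman rho = 0.89, n = 38 genes, which are not independent replicates), as they did across all genes tested (0.90 and 0.88).

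**Figure D2:**
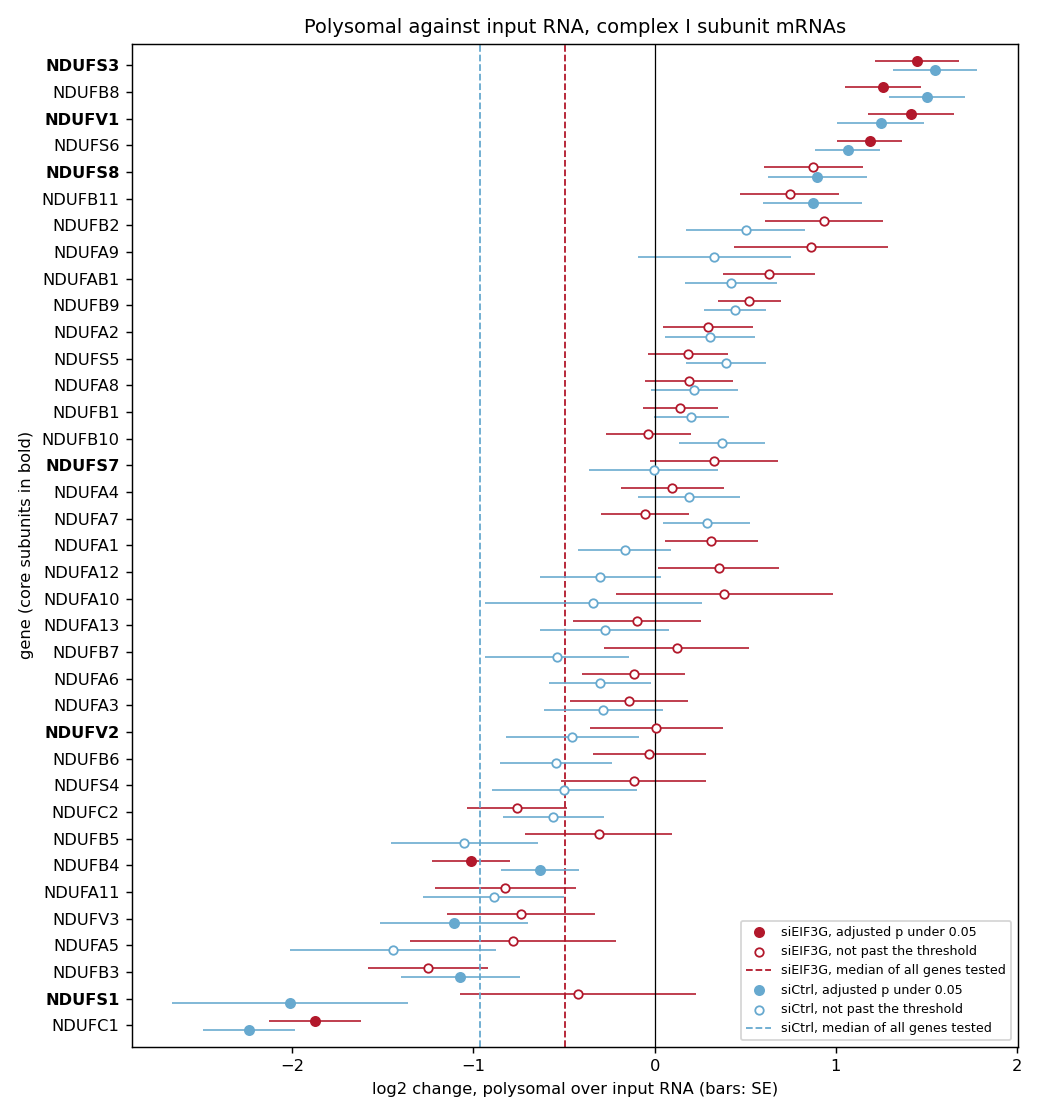
Log2 change of polysomal over input RNA with its SE for 37 of the 38 subunit mRNAs, in siEIF3G and siCtrl cells, with filled points for an adjusted p under 0.05 and dashed lines at the medians of all genes tested (-0.49 in siEIF3G and -0.96 in siCtrl cells). NDUFS3, NDUFB8, NDUFV1 and NDUFS6 are filled on the right and NDUFC1 and NDUFB4 on the left in both cell populations, and most subunits lie to the right of the dashed lines.

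The sign of a change in TPM depends on the rest of the library. The median log2 change of polysomal over input RNA was 0.13 for the 38 mRNAs and -0.49 for all genes tested in siEIF3G cells, and -0.08 and -0.96 in siCtrl cells. Accordingly 31 of the 38 mRNAs in siEIF3G cells and 32 in siCtrl cells lay above the median of all genes, where 50% of all genes lie. The same held for 34 and 35 of 40 subunit mRNAs of complexes II to V and 61 and 62 of 78 mitochondrial ribosomal protein mRNAs. The counts were 13 and 12 of 20 complex I assembly factors and 43 and 67 of 84 cytosolic ribosomal protein mRNAs. Relative to that median NDUFC1 was still lower, at -1.38 and -1.27, whereas NDUFB4 lay at -0.52 in siEIF3G and 0.33 in siCtrl cells. With median-of-ratios size factors, which bring the median of all genes near 0, no subunit mRNA passed in siEIF3G cells (0.17% of all genes higher and 0.273% lower). In siCtrl cells 14 were then higher and 2 lower (26.7% and 16.2% of all genes), and NDUFB3 and NDUFB4 turned to 0.10 and 0.54 in siCtrl cells. NDUFS3, NDUFB8, NDUFV1 and NDUFS6 stayed higher and NDUFC1 lower in direction under that scaling and under quantile normalization, in both populations.

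Single libraries decided several of these calls. NDUFC1 and NDUFS6 kept an adjusted p under 0.05 in both populations whichever library was left out, and NDUFS3 and NDUFB8 did so in siCtrl cells. In siEIF3G cells NDUFS3 was lost without siEIF3G polysomal 1 (adjusted p = 0.063), NDUFV1 without siEIF3G input 1 (0.0539) and NDUFB8 without either of these libraries (0.0631 and 0.0531). In siCtrl cells NDUFV1 was lost without siCtrl polysomal 2, siCtrl input 2 or siCtrl input 3 (0.0515 to 0.0576). The calls of NDUFB3, NDUFB4, NDUFB11, NDUFS1, NDUFS8 and NDUFV3 in siCtrl cells were each lost without siEIF3G polysomal 1 or 2, without any replicate of siCtrl polysomal RNA, or without siCtrl input 2 or 3 (adjusted p up to 0.196), and NDUFB4 and NDUFV3 also without siEIF3G input 1 or 3. NDUFV3 was lost without siEIF3G polysomal 3 as well (0.0522). The NDUFB4 call in siEIF3G cells was lost without siEIF3G polysomal 1 or 2, siEIF3G input 1 or 3, siCtrl polysomal 2 or siCtrl input 2 (0.0516 to 0.146). Without the 3 libraries that stood apart, 8 subunit mRNAs were higher and 10 lower in siEIF3G cells (21.1% and 26.3%) and 7 higher and 13 lower in siCtrl cells (18.4% and 34.2%), while among all genes 16.4% were higher and 54.8% lower in siEIF3G cells and 13.3% and 61.8% in siCtrl cells. The 6 mRNAs named for both populations were among those calls, with NDUFS1 now at -1.25 in siEIF3G cells as well (adjusted p = 0.00882). The omitted siEIF3G input 2 held the lowest input value of NDUFS1 in siEIF3G cells. Since the 3 libraries were picked for their likeness to the other fraction, the added calls are no separate support for a difference between fractions.

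Core and accessory subunit mRNAs were set side by side without a test, since members of a list are not replicates. The median log2 change of polysomal over input RNA was 0.88 for the 7 core and 0.10 for the 31 accessory mRNAs in siEIF3G cells, and 0.90 and -0.28 in siCtrl cells. Of the core mRNAs, 2 were higher and 0 lower in siEIF3G cells and 3 higher and 1 lower in siCtrl cells. The accessory counts were 2 higher and 2 lower in siEIF3G cells and 3 higher and 4 lower in siCtrl cells, where 1.81% of all genes were higher and 1.33% lower in siEIF3G cells and 7.98% and 28.9% in siCtrl cells. Without the 3 libraries that stood apart, 4 core mRNAs were higher and 1 lower in siEIF3G cells and 3 higher and 2 lower in siCtrl cells. The accessory counts were then 4 higher and 9 lower in siEIF3G cells and 4 higher and 11 lower in siCtrl cells, against the all-gene shares given above for these libraries. The medians without them were 1.154 for core and 0.0026 for accessory mRNAs in siEIF3G cells, and 0.83 and -0.032 in siCtrl cells. The core mRNAs made up 20.1 ± 1.63% of the summed level of the 38 in siEIF3G polysomal and 14.6 ± 0.990% in siEIF3G input libraries, and 18.6 ± 2.45% in siCtrl polysomal and 13.4 ± 0.204% in siCtrl input libraries (SD, n = 3 each). Every polysomal library had a higher core share than every input library. Among the core mRNAs themselves, NDUFS1 lay at the low end and NDUFV2 and NDUFS7 near the middle of the 38. With NDUFA4 left out the accessory medians were 0.05 in siEIF3G and -0.28 in siCtrl cells.

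**Figure D3:**
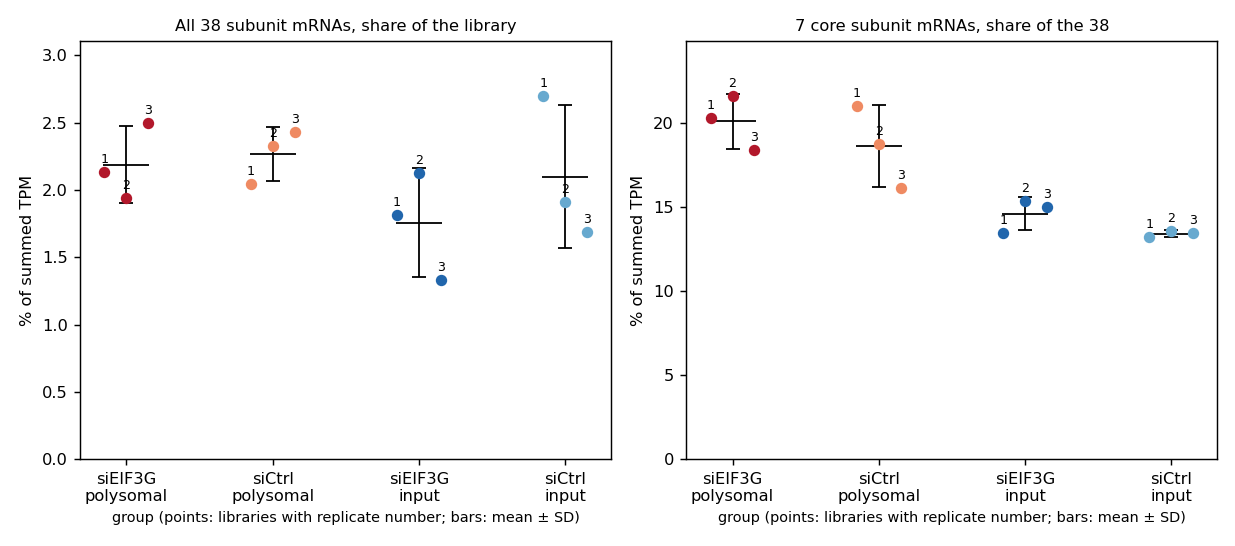
Share of each library taken by the 38 subunit mRNAs (left) and share of that sum taken by the 7 core mRNAs (right), in percent of summed TPM, with points for libraries and bars for mean and SD. The total share overlaps between groups, and siCtrl input 1 is highest at 2.70%, while the core share of the 6 polysomal libraries (16.1 to 21.6%) lies above that of the 6 input libraries (13.2 to 15.3%).

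By position in the complex, the median log2 change of polysomal over input RNA in siEIF3G cells was 0.15 for the 8 mRNAs of the N module, 0.60 for the 8 of the Q module, -0.10 for the 9 of the proximal and 0.13 for the 12 of the distal membrane arm. In siCtrl cells the medians were -0.38, 0.31, -0.28 and 0.29. Without the 3 libraries that stood apart, the N module median turned to -0.34 in siEIF3G cells, with 0.51 for the Q module, -0.00056 for the proximal and 0.27 for the distal arm. In siCtrl cells these medians were then -0.67, 0.34, -0.099 and 0.24. Across the 38 genes the log2 mean level and the log2 change correlated with r = 0.41 and rho = 0.44 in siEIF3G cells and with r = 0.55 and rho = 0.53 in siCtrl cells. The level and the change come from the same 12 libraries, and genes are not independent replicates, so these values are a description.

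The start regions of the genes were read for the element ATGGCGGC, which is the shared core of the binding motif of YY1 and of TISU, an initiator known for translation from very short leaders. The element was picked after the values had been seen. RefSeq windows (GRCh38.p14) were found for 32 of the 38 genes, and 6 of them (18.75%) held the element on the sense strand within the first 50 transcript bases, against 2.746% of 15843 protein-coding genes. On either strand of the 300-base window it was in 28.125% of the 32 and in 5.226% of protein-coding genes. These protein-coding genes include genes not tested here, whereas all members were tested. The share among the genes tested or among other mitochondrial genes is not given here. The 6 sites are shown because they include NDUFS3 and NDUFS6, which passed in both populations. Each line runs 5′ to 3′ in the direction of transcription, with the element in capitals.
NDUFS3 (chr11:47579086-47579107, plus strand): agtaacATGGCGGCggcggcgg
NDUFS6 (chr5:1801412-1801433, plus strand): cgcaaaATGGCGGCggcgatga
NDUFB11 (chrX:47144664-47144685, minus strand): tctgtcATGGCGGCtgggctgt
NDUFA9 (chr12:4649121-4649142, plus strand): gaaaagATGGCGGCtgccgcac
NDUFA13 (chr19:19516233-19516254, plus strand): gcgagtATGGCGGCgtcaaagg
NDUFS4 (chr5:53560657-53560678, plus strand): agcaagATGGCGGCggtgtcaa

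The element begins between transcript bases 12 and 25 of the annotated start in these 6 genes. In siEIF3G cells the log2 changes of polysomal over input RNA of the 6 mRNAs had a median of 0.80 and ranged from -0.12 to 1.45, against a median of 0.07 in the 26 without it. In siCtrl cells the medians were 0.60 with the element (range -0.50 to 1.55) and -0.29 without it. For siEIF3G over siCtrl the medians were lower with the element, at -0.22 against 0.09 in polysomal RNA and -0.22 against -0.12 in input RNA. The 6 included 2 of the 4 higher calls of siEIF3G cells and 3 of the 6 of siCtrl cells, and no lower call. Among all genes tested 1.81% were higher and 1.33% lower in siEIF3G cells, and 7.98% and 28.9% in siCtrl cells. NDUFB8 and NDUFV1, which were also higher on polysomes, do not have these letters in the window. The element was picked with these values known, and the same split of all genes is not given here. A link between the element and polysomes was not tested. A match is a description of the sequence and was not tested as a site.

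The knockdown effect in polysomal RNA asked whether subunit mRNAs changed on polysomes when EIF3G was low. None of the 38 passed the threshold there (limma; 2 at an unadjusted p under 0.05, against 6.69% of all genes), where 0.0189% of all genes tested passed. NDUFS1 had the highest value, 1.73 ± 0.65 (SE; adjusted p = 0.65), with 4.90, 6.82 and 10.8 TPM in siEIF3G against 2.39, 1.69 and 0.630 TPM in siCtrl polysomal RNA, so that every siEIF3G value lay above every siCtrl value. The siCtrl values lie near the pseudocount of 1, so this change also rests on values near the floor. NDUFA10 followed at 1.17 ± 0.60 (SE; adjusted p = 0.65), with 46.5, 61.1 and 70.1 TPM in siEIF3G against 62.97, 19.6 and 12.9 TPM in siCtrl polysomal RNA. Its groups overlapped through siCtrl polysomal 1. The lowest values were those of NDUFB10, -0.53 ± 0.24 (SE; adjusted p = 0.65), with 407, 361 and 241 TPM in siEIF3G against 403, 474 and 558 TPM in siCtrl polysomal RNA, and of NDUFS3, -0.48 ± 0.23 (SE; adjusted p = 0.65). The groups did not overlap for 6 higher mRNAs (NDUFA12, NDUFB5, NDUFB9, NDUFC1, NDUFS1 and NDUFV2) and 1 lower mRNA (NDUFS3), that is 15.8% and 2.63%, against 21.6% and 7.61% of all genes. These 7 names were taken from the values.

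The median log2 change of the 38 mRNAs in polysomal RNA was 0.02, against 0.33 for all genes tested, and 9 of the 38 lay above the median of all genes. With size factors the median of the 38 was -0.52 while that of all genes was -0.03, and with quantile normalization both were near 0 (-0.01 and 0.01). The core median was 0.25 and the accessory median -0.07. Their difference, 0.32, was 0.091 without siCtrl polysomal 3 and 0.51 without siCtrl polysomal 1. The 95% interval of the change lay entirely within 1 log2 unit of 0 for 24 of the 38 mRNAs, with half-widths of 0.37 to 1.41.

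In input RNA the knockdown changed no subunit mRNA past the threshold either (limma; 0 of 38 at an unadjusted p under 0.05, against 1.36% of all genes; 0.0189% of all genes passed adjustment). The highest value was that of NDUFA10, 0.45 ± 0.60 (SE; adjusted p = 1), and the lowest were those of NDUFB7, -0.73 ± 0.40 (SE; adjusted p = 1), and NDUFA13, -0.500 ± 0.35 (SE; adjusted p = 1). For NDUFB7 the input values were 2103, 2794 and 1011 TPM in siEIF3G against 5355, 2585 and 1949.9 TPM in siCtrl RNA, and for NDUFA13 1826, 2226 and 807 TPM against 3136, 1967 and 1505 TPM. These groups overlapped, and siCtrl input 1 held the highest value of either gene. NDUFA10 turned to -0.17 without that library. NDUFS6 was the only mRNA whose groups did not overlap, lower in siEIF3G input RNA at -0.24 ± 0.18 (SE; adjusted p = 1), against 1.88% of all genes higher and 1.8% lower without overlap. The median was -0.09 for the 38 and -0.05 for all genes, -0.04 for core and -0.11 for accessory mRNAs. The core minus accessory difference, 0.07, turned to -0.13 without siCtrl input 3 and to -0.08 without siEIF3G input 2. The interval lay within 1 log2 unit of 0 for 27 of the 38.

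**Figure D4:**
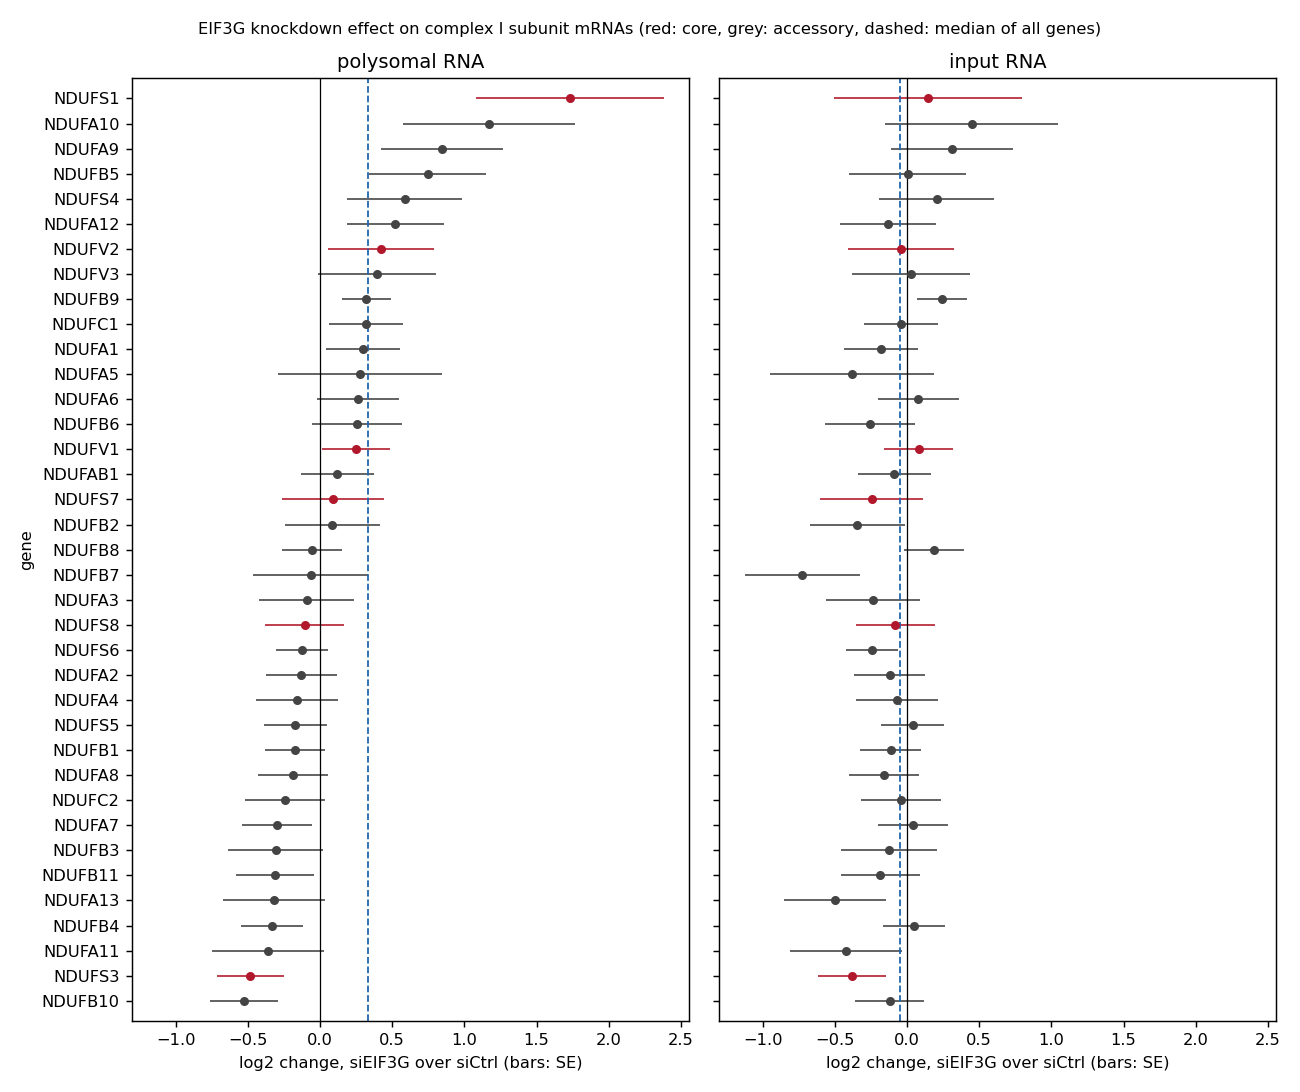
Log2 change of siEIF3G over siCtrl with its SE for 37 of the 38 subunit mRNAs in polysomal (left) and input RNA (right), with core subunits in red, accessory subunits in grey and the median of all genes dashed. No mRNA passes the threshold in either panel, and NDUFS1 (1.73) and NDUFA10 (1.17) lie farthest right in polysomal RNA with the widest bars.

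The change in polysome loading, the knockdown effect in polysomal RNA minus that in input RNA, tested whether EIF3G knockdown altered the distribution between fractions. No subunit mRNA passed (limma; 0 of 38 at an unadjusted p under 0.05), and neither did any of the 10605 genes, of which 0.179% had an unadjusted p under 0.05. The highest values were those of NDUFS1, 1.59 ± 0.92 (SE; adjusted p = 0.908), and NDUFB5, 0.74 ± 0.57 (SE; adjusted p = 0.908), and the lowest those of NDUFB10, -0.41 ± 0.33 (SE; adjusted p = 0.908), and NDUFB4, -0.38 ± 0.30 (SE; adjusted p = 0.908). The NDUFS1 value rests on the same siCtrl polysomal values near the floor. The median was 0.17 for the 38 against 0.38 for all genes, and 0.33 for core against 0.14 for accessory mRNAs. That order was reversed without siCtrl polysomal 3 (core minus accessory -0.15, against 0.19 with all libraries), siEIF3G polysomal 2 (-0.0657) or siCtrl input 1 (-0.0784). The interval lay within 1 log2 unit of 0 for 13 of the 38, and the intervals of the others reached beyond 1 log2 unit.

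The other genes of the pathway were read in the same comparisons. None of 20 assembly factors, which help build complex I, and none of 40 subunits of complexes II to V passed in a knockdown comparison (limma; in polysomal RNA, input RNA and the loading change 0, 1 and 0 assembly factors and 4, 0 and 0 of complexes II to V had an unadjusted p under 0.05). In siEIF3G cells 2 assembly factors were higher on polysomes than in input RNA, FOXRED1 (1.34 ± 0.32; adjusted p = 0.037) and NDUFAF3 (1.05 ± 0.22; 0.0265), and 0 were lower. These 2 names were taken from the values. Among all genes 1.81% were higher and 1.33% lower there. In siCtrl cells 3 were higher and 6 lower, against 7.98% and 28.9% of all genes, with the largest changes in LYRM2 (-2.25 ± 0.56; limma adjusted p = 0.0251) and NDUFAF6 (-1.77 ± 0.41; 0.0205). LYRM2 averaged only 0.71 ± 0.50 TPM in siCtrl polysomal RNA (SD, n = 3), below the pseudocount of 1, so its change rests on values near the floor. Without the 3 libraries that stood apart, 4 assembly factors were higher and 10 lower in siEIF3G cells and 4 higher and 12 lower in siCtrl cells, where 16.4% and 54.8% of all genes were higher and lower in siEIF3G cells and 13.3% and 61.8% in siCtrl cells. With all libraries the median of the assembly factors was -0.32 in siEIF3G and -0.82 in siCtrl cells. Of complexes II to V, 3 were higher and 3 lower in siEIF3G cells, and 7 higher and 5 lower in siCtrl cells, with medians of 0.14 and 0.08, to be read against the same all-gene shares. Without the 3 libraries the counts were 7 higher and 7 lower in siEIF3G cells and 9 higher and 10 lower in siCtrl cells, with medians of -0.03 and 0.0091. The largest changes in siEIF3G cells were those of the ATP synthase subunits ATP5MK (-1.78 ± 0.44; adjusted p = 0.0474) and ATP5F1E (-1.51 ± 0.26; 0.0102), and in polysomal RNA the largest knockdown values were those of ATP5F1A (1.71 ± 0.63; 0.65) and UQCRC2 (1.65 ± 0.64; 0.65), neither past the threshold.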

How the data were processed

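RNA of polysomal fractions and of whole lysate (input) of H1299 cells was selected with oligo(dT) and sequenced, per the labels' protocols. The authors deposited TPM per gene and library, made with RSEM 1.3.1 on the build GRCh38.p13 per the submitters' processing notes. What aligner, annotation and filters they used is not given in the sources used here. TPM keeps no depth, so no counting interval is given, and a change of all mRNAs alike leaves it as it is.

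Tested genes had a 12-library mean of 1 TPM or more (10605, with 5567 set aside). Log2(TPM + 1) was fitted with 4 group means in limma 3.58.1 (R 4.3.3), using its mean-variance trend, which left 8 residual degrees of freedom. Benjamini-Hochberg adjustment ran over all genes tested, with a threshold of 0.05. A fold change on this scale understates that of low genes. The script was tested on simulated data. Groups came from the labels' treatment field. There were 5 comparisons: siEIF3G against siCtrl in polysomal and in input RNA, their difference, and polysomal against input RNA in siEIF3G and in siCtrl cells.

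Named were the members past the threshold, the 2 most positive and 2 most negative members of each comparison, the 7 core subunits, the 3 highest and 3 lowest by mean TPM, NDUFA4, and the 2 members of other lists with the largest change. A member that this rule names and 2 other genes are not reported here by name or value, though the member is counted in the sums, medians and counts. The members, lists and tests were chosen with earlier results of these data known. Alternatives covered the pseudocount (0.1), filters (none, 5 TPM), size factors, quantile normalization, no trend, a replicate block, the compared groups alone, omission of each library and of 3 libraries, and NDUFA4 left out. Element sequences come from RefSeq windows of GRCh38.p14, 250 bases before to 50 after a start.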

Additional observations from a re-analysis of the deposited data

How the results depend on the processing

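No subunit mRNA passed in the 3 comparisons that involve the knockdown under any alternative run, and of 689 single-gene values 584 kept their direction and side of the threshold, 93 lost it, 8 gained it and 4 reversed. The reversals were NDUFA10 in input RNA (-0.17 without siCtrl input 1, and up to 0.84 with another library left out), NDUFB3 and NDUFB4 in siCtrl cells (0.10 and 0.54 with size factors) and NDUFV3 there (0.046 with quantile normalization); the cause was not tested. Size factors moved the median of the 38 to -0.52 for the knockdown in polysomal RNA, -0.40 for the loading change, and 0.73 and 1.09 for polysomal over input RNA in siEIF3G and siCtrl cells. They also bring the median of all genes near 0, but the 38 and all genes did not move by the same amount. The pseudocount of 1 is added after this scaling, so a low gene moves less. For the knockdown in polysomal RNA NDUFS1 went from 1.73 to 1.45 and NDUFB7 from -0.07 to -0.61. How much of the difference this makes up was not tested. The count of subunit mRNAs past the threshold in siEIF3G cells was 6, and it was 0 with size factors, 3 with the compared groups alone, 18 without the 3 libraries and 3 to 9 with 1 library left out. In siCtrl cells it was 11, and it was 5 without a filter, 5 with the compared groups alone, 20 without the 3 libraries and 4 to 16 with 1 library left out. The core minus accessory median in siCtrl cells was 1.17, with 0.75 under quantile normalization and 0.69 to 1.17 with 1 library left out. Same-numbered libraries correlated in their deviations between -0.69 and 0.71, and the numbers were not taken as pairs. With 3 libraries per group, these correlations cannot show whether a polysomal and an input library came from the same lysate. A pairing of that kind within each siRNA was not fitted, and the replicate block joined the numbers across both siRNAs. With the replicate block the counts were 0, 0 and 0 for the knockdown comparisons, 6 in siEIF3G cells and 8 in siCtrl cells, where NDUFB4 (adjusted p = 0.054), NDUFS1 (0.0524) and NDUFV3 (0.0662) missed the threshold. Where 1 library was left out, the groups shared the estimate of the spread. The depth is unknown, and NDUFS1, at a few TPM, has the widest interval of the 38.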

Other observations

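Regulators of mitochondrial gene expression were read beside the subunits. Of 8 such genes 7 were tested, and with all libraries none passed in any of the 5 comparisons (limma; 0 of 7 at an unadjusted p under 0.05 in 4 comparisons and 6 of 7 for polysomal over input RNA in siCtrl cells, where 60.7% of all genes reached it). Without the 3 libraries that stood apart, 0 were higher and 4 lower on polysomes in siEIF3G cells and 1 higher and 6 lower in siCtrl cells, against 16.4% higher and 54.8% lower of all genes in siEIF3G cells and 13.3% and 61.8% in siCtrl cells. With all libraries TFAM, which packages mitochondrial DNA, had the lowest value for polysomal over input RNA in siCtrl cells, -1.70 ± 0.67 (SE; limma adjusted p = 0.0552). GABPA, a subunit of a transcription factor of respiratory genes, followed at -1.53 ± 0.58 (0.0513). The median of the 7 was -0.70 in siEIF3G and -1.19 in siCtrl cells, against -0.49 and -0.96 for all genes tested. PPARGC1A, a coactivator of mitochondrial biogenesis, was at most 0.94 TPM in any library and was not tested. NDUFA4L2, a paralogue of NDUFA4 known from hypoxia, lay at 0.35 to 2.23 TPM and was not tested either.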
